A study of Mus musculus with 8 samples.

Results

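The genes described here are 10 components and targets of cAMP and protein kinase A (PKA) signalling, chosen by symbol from a table of 23235 genes: Prkar1a, Prkar2a, Prkar2b, Prkaca, Prkacb, Pde4d, Pde7b, Creb1, Sgk1 and Rgs2. Of these, 9 passed the filter on low values (at least 2 libraries with an FPKM of 1 or more), as did 13688 of all genes. Pde4d did not and is given by its values. FPKM is the number of sequenced fragments per length of transcript and per size of library, so levels of different genes in 1 library can be set side by side.

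RNA was measured in ovarian granulosa cells of female C57BL/6 mice, in 8 libraries. The genotypes, wild type (WT) and CNOT6/6L KO (knockout), were each represented by untreated cells (0 h) and by cells taken 44 h after PMSG, with 2 libraries per group. Treated below means 44 h after PMSG, and untreated means 0 h. CNOT6 and CNOT6L are paralogous deadenylase subunits of the CCR4-NOT complex, which shortens poly(A) tails, and the KO source is named a double knockout; the labels name neither the construct of the alleles nor any Cre driver, and they give no PMSG dose and no age. Separate or pooled animals are not stated for the replicates, and p-values thus reflect only how far these libraries spread, which may be technical.

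PMSG is a gonadotropin that acts like follicle-stimulating hormone (FSH). In granulosa cells the FSH and LH receptors couple to the G protein Gs, which stimulates adenylyl cyclase to make cAMP. PKA rests as regulatory subunits holding catalytic subunits; cAMP binds the regulatory subunits and frees the catalytic ones, which phosphorylate CREB1 among other proteins. Phosphodiesterases end the signal by breaking cAMP down, RGS proteins shorten signalling by G protein alpha subunits, and SGK1 is a kinase whose mRNA is known to be induced by FSH in these cells.

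CREB1 binds the cAMP response element, TGACGTCA in its full palindromic form, or its shorter core TGACG. The 250 bases before each RefSeq transcript start of the 10 genes (24 windows, GRCm38.p6; 10 of 10 genes matched) were searched for both on either strand; TGACG also lies inside TGACGTCA. The full element was in 1 of the 24 windows, belonging to Prkar1a, against 508 of 32851 windows of all genes (1.55%). TGACG was in 7 of the 24 windows, against 17.8% of all windows. These came from 5 of the 10 genes (Prkaca, Prkacb, Prkar1a, Rgs2 and Sgk1), against 19.8% of all 27025 genes. The 10 genes have more windows per gene than all genes do, which by itself raises a count per gene. Of the 6 windows of Prkar1a, 2 overlap and share 1 of these TGACG matches, and FPKM per gene do not say which start was used. The sequences below, with motif matches in capitals, are shown because they hold the one full element and the cores of Rgs2 and Sgk1, beside the upstream sequence of Prkar2b, which holds neither. The Rgs2 and Prkar2b windows are cut back to the bases outside GENCODE exons.
Prkar1a, chr11:109650889-109650918, plus strand, around the full element: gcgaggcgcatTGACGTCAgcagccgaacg
Rgs2, chr1:144004162-144004399, minus strand: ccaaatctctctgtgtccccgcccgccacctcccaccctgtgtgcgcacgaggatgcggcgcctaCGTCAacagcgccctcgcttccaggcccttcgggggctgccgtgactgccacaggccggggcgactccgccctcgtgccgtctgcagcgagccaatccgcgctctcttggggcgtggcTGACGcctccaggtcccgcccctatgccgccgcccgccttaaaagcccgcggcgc
Sgk1, chr10:21978422-21978671, plus strand, 1 of its 6 windows: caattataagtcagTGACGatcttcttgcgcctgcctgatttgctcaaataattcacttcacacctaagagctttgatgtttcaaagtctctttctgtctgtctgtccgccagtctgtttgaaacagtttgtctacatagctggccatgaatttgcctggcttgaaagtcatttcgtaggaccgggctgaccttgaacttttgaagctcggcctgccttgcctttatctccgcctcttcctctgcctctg
Prkar2b, chr12:32061297-32061527, minus strand: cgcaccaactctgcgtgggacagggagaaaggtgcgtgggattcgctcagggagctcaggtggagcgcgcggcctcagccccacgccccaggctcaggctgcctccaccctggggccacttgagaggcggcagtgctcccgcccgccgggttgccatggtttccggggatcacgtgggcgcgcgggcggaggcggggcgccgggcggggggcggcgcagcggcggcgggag
The full element of Prkar1a began 49 bases before the start that follows its window. The cores of Rgs2 began 185 and 67 bases before its start. The core of Sgk1 began 236 bases before the start that follows the window shown, and the other Sgk1 windows held neither motif. A match is a description of these letters and not evidence of binding.

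Library totals were alike: FPKM summed to between 675557 and 753216, and relative depth was 0.904 to 1.26 of the median library. The pair of KO libraries at 44 h stood apart from each other: 1527 genes differed at least 2-fold between them on the log2(FPKM + 1) scale, against 317 to 432 genes within the other 3 pairs. Cnot6 was 29.1 and 18.4 FPKM in untreated WT and 11.7 and 12 in untreated KO, and at 44 h the KO libraries held 26.7 (labelled replicate 1) and 17.4 FPKM (replicate 2) beside 26.0 and 26.9 for WT. Cnot6l was 6.11 and 7.07 against 4.69 and 1.97 at 0 h, and 4.20 and 2.63 against 2.01 and 1.61 at 44 h. In the 44 h library labelled KO replicate 1, Cnot6 thus lay between both WT libraries at 44 h, while Cnot6l (2.01 FPKM) lay under both. These levels do not settle whether the label is right. The 44 h differences of each of the 10 genes that involve KO are given with and without that library. Which part of either transcript the alleles remove is not given in the labels, so these levels need not show the deletion. The 12 granulosa markers summed to between 10249 and 26220 FPKM per library, and the 12 oocyte markers to between 807 and 4266. None of either list was at 0 in all libraries. Most of the granulosa sum was Inha, at 8434 to 23238 FPKM, so the sum says little about the other granulosa markers.

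Of the 9 genes tested, limma called 0 in any of the 5 comparisons at an adjusted p under 0.05, at which it called 0.0804% of all genes for 44 h against 0 h in WT, 0.139% for the same change in KO, 0.0365% for KO against WT at 0 h, 0.0219% for KO against WT at 44 h, and 0.0438% for the difference between the 2 changes. At an unadjusted p under 0.05 the counts were 5, 3, 2, 0 and 0 of 9, where 24.1%, 21.1%, 9.69%, 9.79% and 1.82% of all genes passed. The fit shares 1 spread over 4 groups, and the pair of KO libraries at 44 h entered it. With the 4 WT libraries alone limma called 3 of the 9 genes for the WT change (Sgk1, Rgs2 and Pde7b) and 6.9% of all genes. Without the 44 h library labelled KO replicate 1 it called 4 of 9 for the WT change (those 3 and Prkar1a; 9.74% of all genes) and 4 of 9 for the KO change (Sgk1, Rgs2, Prkar2b and Prkar1a; 8.54% of all genes). Without KO replicate 2 in its place it called 0 of 9 for the KO change (0.234% of all genes) and again 4 of 9 for the WT change (Sgk1, Rgs2, Pde7b and Prkar1a; 9.72% of all genes), so the WT calls were gained on leaving out either library. In these fits the lone KO library at 44 h is assumed to vary like the other groups. The words rose and fell below refer to these called changes.

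**Figure D1:**
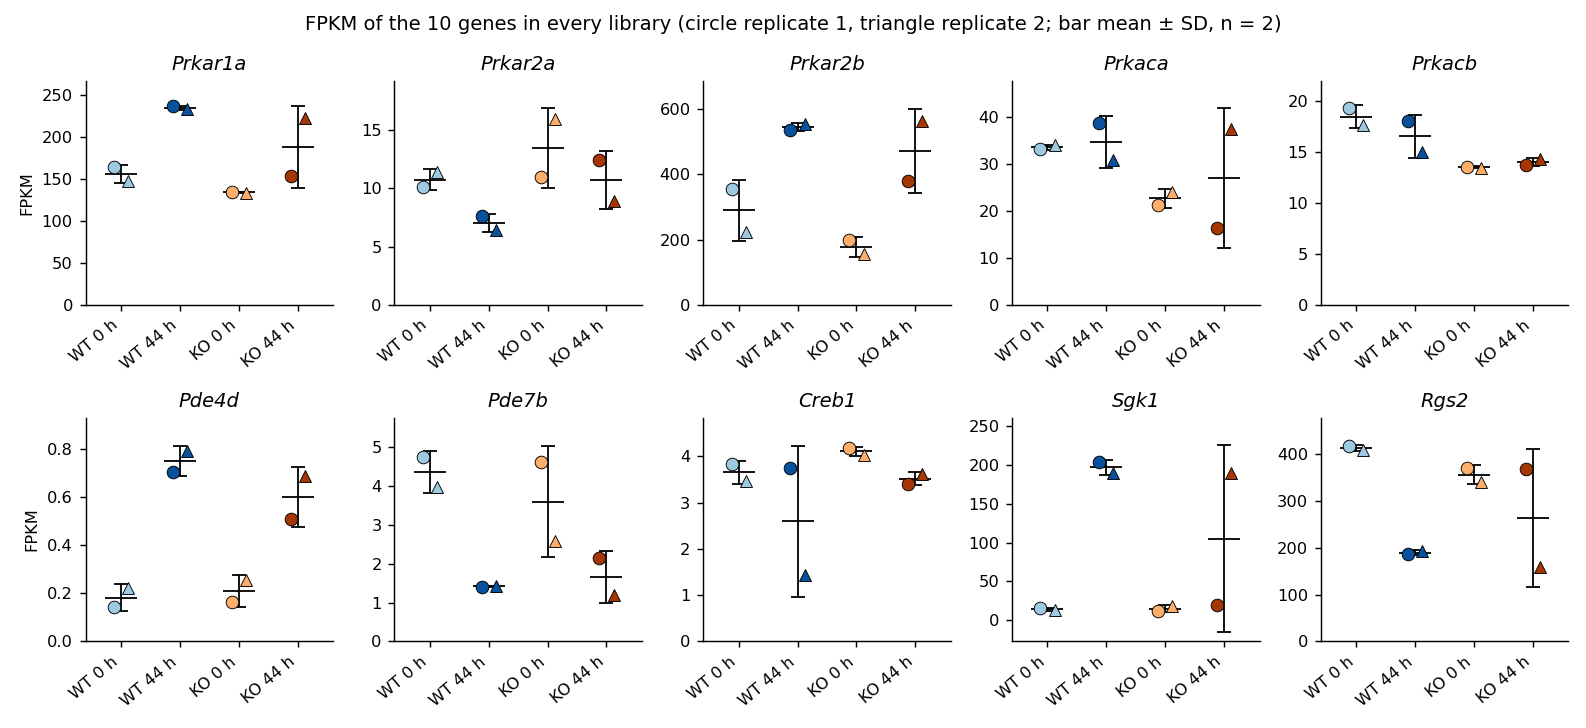
FPKM (y axis, linear) of each of the 10 genes in the 4 groups (x axis); circles are replicate 1, triangles replicate 2, and the line and whiskers are mean ± SD, n = 2. The KO pair at 44 h is far apart for Sgk1 (19.9 and 190 FPKM) and Rgs2 (368 and 160), while both WT pairs are close.

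Sgk1 mRNA changed most of the 9. Sgk1 encodes a serine/threonine kinase of the AGC class related to AKT, which acts downstream of PI3K and PDK1 signalling. It was 15.7 and 12.5 FPKM in untreated WT and 204 and 190 in treated WT. It was 11.5 and 18.3 FPKM in untreated KO, 19.9 in the 44 h library labelled KO replicate 1 and 190 in KO replicate 2. Both WT libraries and KO replicate 2 were high at 44 h, and the remaining KO library was close to the untreated level. The mean rose 14.0-fold in WT (14.1 ± 2.23 to 197 ± 10.2 FPKM, SD, n = 2), a log2(FPKM + 1) difference of 3.72, with SE 0.877 and adjusted p = 0.104 over all 8 libraries and SE 0.154 and adjusted p = 9.41e-04 with the WT libraries alone (limma).

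In KO, Sgk1 in replicate 2 was 12.7 times the KO 0 h mean and 96.5% of the WT 44 h mean, and in replicate 1 it was 1.33 times the KO 0 h mean and 10.1% of the WT 44 h mean. The KO change was 2.02 (SE 0.877, adjusted p = 0.245) with both libraries, and it was 3.62 (adjusted p = 0.00272) without replicate 1. KO and WT at 44 h differed by -1.65 (SE 0.877, limma adjusted p = 0.557), by -0.05 (adjusted p = 0.983) without replicate 1, and by -3.24 (adjusted p = 0.00499) with replicate 1 as the only KO library, where 5.85% of all genes were called; the changes themselves differed by -1.70 (SE 1.24, adjusted p = 1.00), by -0.10 without replicate 1, and by -3.29 (adjusted p = 0.0245, 0.57% of all genes called) without replicate 2. The difference between genotypes in Sgk1 at 44 h rests on 1 library, KO replicate 1. Its Cnot6 level was like WT, while its Cnot6l level was under both WT libraries. At 0 h the genotypes differed by 0.05 (95% interval -2.02 to 2.12).

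Rgs2, which limits signalling by Gq and is also reported to bind adenylyl cyclase, moved the other way. It was 417 and 408 FPKM in untreated WT and 186 and 194 in treated WT. In KO it was 370 and 341 FPKM at 0 h, 368 in the 44 h library labelled KO replicate 1 and 160 in KO replicate 2. The WT level at 44 h was 46.0% of that at 0 h, and Rgs2 fell by 1.12 on the log2 scale (SE 0.346, adjusted p = 0.130 over all 8 libraries; SE 0.121, adjusted p = 0.0115 in WT alone, limma). At 44 h KO replicate 2 stood at 44.9% and KO replicate 1 at 103% of the KO 0 h mean. The KO change was -0.55 (adjusted p = 0.401) with both libraries and -1.15 (adjusted p = 0.0103) without replicate 1. KO minus WT at 44 h was 0.35 (SE 0.346, adjusted p = 0.729) with both libraries, 0.95 (adjusted p = 0.0218) with replicate 1 alone and -0.25 with replicate 2 alone. At 0 h both KO libraries lay under both WT libraries (-0.21, adjusted p = 0.912).

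**Figure D2:**
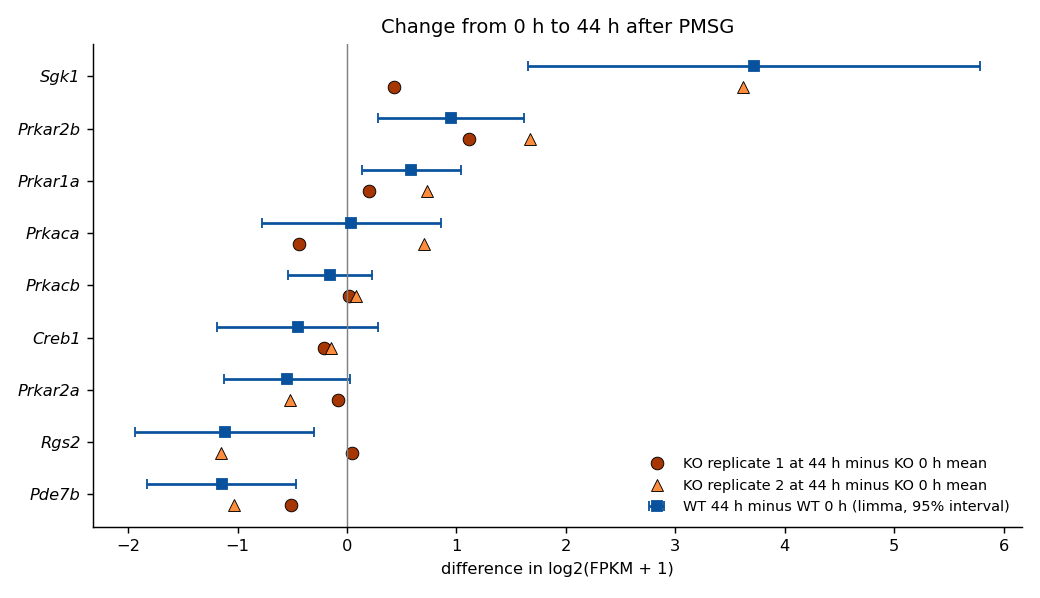
Difference in log2(FPKM + 1) between 44 h and 0 h (x axis) for the 9 tested genes (y axis); squares are the WT change with its 95% interval from limma over 8 libraries, circles and triangles are the 2 KO libraries at 44 h minus the KO 0 h mean. Sgk1 and Rgs2 of KO replicate 1 (0.43 and 0.05) lie near 0, away from WT (3.72 and -1.12), whereas Prkar2b of both KO libraries (1.11 and 1.68) lies beyond the WT value (0.95).

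The sum of luteal and LH-responsive markers was high in the same libraries as Sgk1, and Rgs2 was low in those libraries. Their 9 genes summed to 11751 and 13818 FPKM in treated WT and to 11104 in KO replicate 2, but to 2632 in the 44 h library labelled KO replicate 1, and to between 1185 and 2482 in the 4 untreated libraries. The sum does not hold for each marker in KO replicate 1 at 44 h. There Lhcgr was 18.8 FPKM against a KO 0 h mean of 1.97, and Cyp11a1 was 129 against 18.8. The part of these markers in the Sgk1 and Rgs2 results was not tested. In bulk RNA, a change in the share of a cell type and a change in RNA per cell cannot be told apart. Oocyte markers, summing to 839 and 807 FPKM in treated WT and to 1971 and 1194 in KO, were lower than at 0 h in both genotypes (1546 and 2585 in WT, 4266 and 3785 in KO). Their part in the results was also not tested.

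Among the regulatory subunits, Prkar2b, encoding RIIβ, the subunit long known to accumulate in FSH-stimulated granulosa cells, was the most abundant and moved most. It was 356 and 223 FPKM in untreated WT and 537 and 554 in treated WT. In KO it was 199 and 155 FPKM at 0 h, 381 in the 44 h library labelled KO replicate 1 and 564 in KO replicate 2. Every library at 44 h exceeded every library at 0 h in both genotypes. WT was 1.88 times its 0 h mean (log2 difference 0.95, SE 0.283, adjusted p = 0.124), and KO replicates 1 and 2 were 2.15 and 3.19 times theirs.

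The KO change in Prkar2b was 1.40 (SE 0.283, adjusted p = 0.0971) with both libraries and 1.68 (adjusted p = 0.0243) without replicate 1, so it passed the threshold in that fit. The KO level at 0 h was 61.2% of WT (-0.68, SE 0.283, 95% interval -1.35 to -0.01, adjusted p = 0.512), with both KO libraries under both WT libraries. At 44 h the difference was -0.23 (adjusted p = 0.785), the libraries overlapped, and it was 0.05 without replicate 1. The difference of the changes was 0.45 (95% interval -0.50 to 1.39, adjusted p = 1.00), or 0.73 without replicate 1.

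Prkar1a, encoding RIα, was the next most abundant regulatory subunit. It was 164 and 148 FPKM in untreated WT and 237 and 234 at 44 h, and 134 and 134 in untreated KO with 154 and 223 at 44 h (replicates 1 and 2). The 44 h libraries lay above the 0 h libraries in both genotypes, and KO replicate 1 was the lowest of the 4 at 44 h. The WT change was 0.59 (SE 0.193, adjusted p = 0.139), and it was called at adjusted p = 0.0349 without the 44 h library labelled KO replicate 1 and at 0.0348 without KO replicate 2. The KO change was 0.46 (adjusted p = 0.229), and 0.73 (adjusted p = 0.0342) without that library. KO stood at 85.9% of WT at 0 h.

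Prkar2a, encoding RIIα, was the scarcest of the 3 regulatory subunit genes among the 10. It was 10.1 and 11.4 FPKM in untreated WT, 7.60 and 6.46 in treated WT, 11 and 15.9 in untreated KO, and 12.5 and 8.95 in treated KO. The 2 WT libraries at 44 h were the lowest of the 8. The WT change was -0.55 (SE 0.244, adjusted p = 0.223), and KO minus WT at 44 h was 0.53 (adjusted p = 0.536), or 0.31 (adjusted p = 0.840) without KO replicate 1.

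The shares of the subunits within the summed regulatory FPKM are given as a description, with no test. Prkar2b made up 67.1% and 58.3% in untreated WT and 68.7% and 69.8% at 44 h, and 57.8% and 50.9% in untreated KO and 69.6% and 70.8% at 44 h. All 4 libraries at 44 h lay within 68.7% to 70.8%, including the KO library that was unlike the others in Sgk1 and Rgs2. The share of Prkar1a was 39.0% and 43.9% in untreated KO and 28.1% and 28.0% at 44 h. The ratio of Prkar2b to Prkar1a was 2.17 and 1.51 in untreated WT, 2.27 and 2.37 in treated WT, 1.48 and 1.16 in untreated KO, and 2.47 and 2.53 in treated KO.

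**Figure D3:**
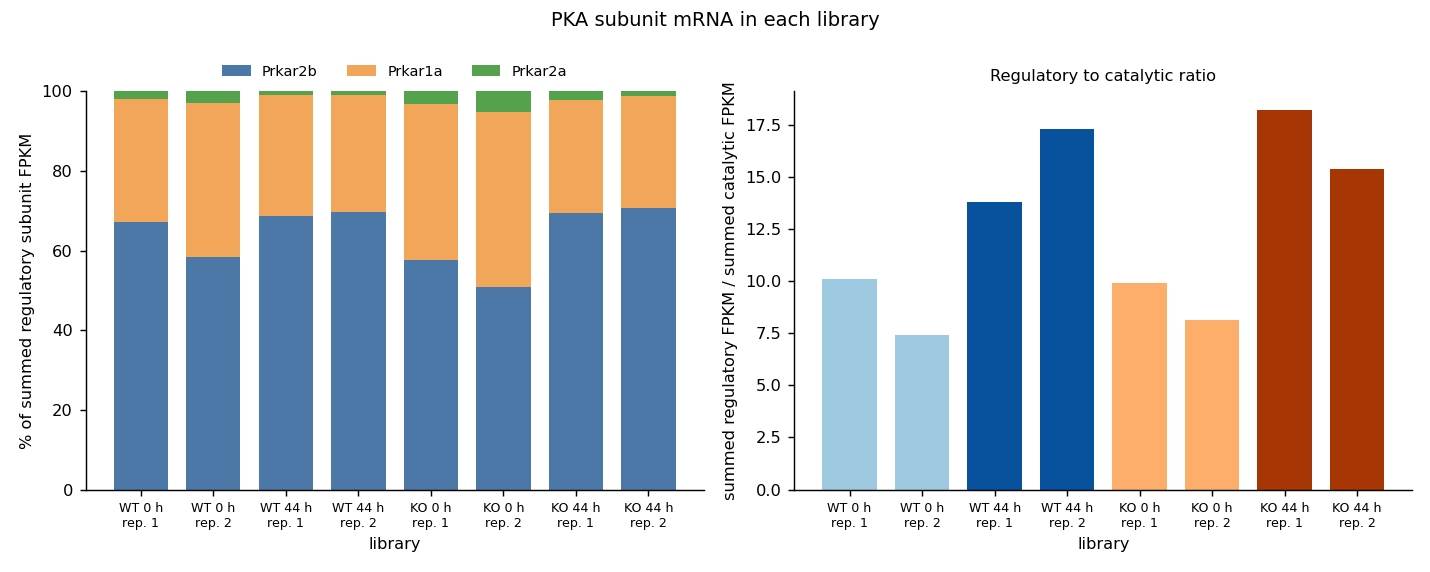
Left, percent of the summed FPKM of Prkar1a, Prkar2a and Prkar2b held by each (stacked bars, y axis) in every library (x axis). Right, that sum divided by summed catalytic FPKM in every library. The 4 libraries at 44 h have 68.7% to 70.8% Prkar2b and ratios of 13.8 to 18.2, against ratios of 7.43 to 10.1 in the 4 libraries at 0 h.

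The catalytic subunits were scarcer than Prkar1a and Prkar2b in every library. Prkaca, encoding Cα, was 33.1 and 33.9 FPKM in untreated WT, 38.6 and 30.8 in treated WT, 21.2 and 24 in untreated KO, and 16.4 and 37.4 in treated KO (replicates 1 and 2). Its WT change was 0.04 (95% interval -0.78 to 0.85, adjusted p = 0.957). The KO libraries at 0 h were under both WT libraries at 67.5% of the mean (-0.55, SE 0.346, adjusted p = 0.696). At 44 h KO replicate 1 lay under both WT libraries and KO replicate 2 between them, and KO against WT was -0.46 (adjusted p = 0.659) with both, -1.03 (adjusted p = 0.0387) with replicate 1 as the only KO library and 0.11 without it.

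Prkacb, encoding Cβ, varied least of the 10 genes, with the highest library at 1.44 times the lowest. It was 19.3 and 17.7 FPKM in untreated WT, 18.1 and 15.1 in treated WT, 13.6 and 13.5 in untreated KO, and 13.8 and 14.4 in treated KO. All 4 KO libraries lay under all 4 WT libraries, with KO at 73.0% of WT at 0 h. The differences were -0.42 at 0 h (SE 0.163, 95% interval -0.81 to -0.04, adjusted p = 0.484) and -0.22 at 44 h (adjusted p = 0.658; -0.19 without KO replicate 1), and neither passed the threshold.

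Regulatory FPKM summed to 530 and 383 in untreated WT and 782 and 794 at 44 h, while catalytic FPKM summed to 52.5 and 51.5 at 0 h and 56.7 and 45.8 at 44 h. In KO the regulatory sums were 344 and 305, then 548 and 796, and the catalytic sums 34.7 and 37.5, then 30.1 and 51.8. Regulatory mRNA exceeded catalytic mRNA 10.1-fold and 7.43-fold in untreated WT and 13.8-fold and 17.3-fold at 44 h. In KO these ratios were 9.91 and 8.13, then 18.2 and 15.4. These are ratios of mRNA levels and not of protein.

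Of the phosphodiesterases, Pde7b, encoding a cAMP-specific enzyme, was lower at 44 h and Pde4d, encoding another, was higher. Pde7b was 4.74 and 3.97 FPKM in untreated WT, 1.41 and 1.42 in treated WT, 4.61 and 2.58 in untreated KO, and 2.14 and 1.20 in treated KO. In both genotypes each library at 44 h lay under each at 0 h. In WT it fell to 32.5% of its 0 h level (log2 difference -1.15, SE 0.289, adjusted p = 0.109 over 8 libraries; adjusted p = 0.0390 in WT alone). The KO change was -0.77 (adjusted p = 0.191), or -1.03 (adjusted p = 0.0894) without replicate 1, and the 2 libraries were at 59.6% and 33.3% of the KO 0 h mean.

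Pde4d was 0.142 and 0.222 FPKM in untreated WT, 0.704 and 0.791 in treated WT, 0.162 and 0.255 in untreated KO, and 0.510 and 0.686 in treated KO. All 4 libraries at 44 h exceeded all 4 at 0 h, and the gene was too low for the filter. The mean at 44 h was 4.11 times that at 0 h in WT, and KO replicates 1 and 2 were 2.44 and 3.29 times the KO 0 h mean. With no filter limma gave 0.56 (SE 0.102, adjusted p = 0.144) in WT and 0.40 (SE 0.102, adjusted p = 0.173; 0.48, adjusted p = 0.0810 without replicate 1) in KO on the log2(FPKM + 1) scale, which understates the change at such levels; with a pseudocount of 0.1 these were 1.60 and 1.18.

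Creb1, encoding the transcription factor that PKA phosphorylates, was near the middle of all genes by level and passed no test of change. It was 3.83 and 3.48 FPKM in untreated WT, 3.75 and 1.44 in treated WT, 4.17 and 4.04 in untreated KO, and 3.41 and 3.62 in treated KO. The WT change of -0.45 (95% interval -1.19 to 0.29, adjusted p = 0.413) was 0.03 without WT replicate 2 at 44 h. The 7 other libraries lay between 3.41 and 4.17 FPKM.

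Counting libraries that do not overlap, 6 of the 9 genes separated 44 h from 0 h in WT: Prkar1a, Prkar2b and Sgk1 higher, and Prkar2a, Pde7b and Rgs2 lower. Of all genes 63.1% did so (22.5% higher, 40.6% lower). In KO 6 of 9 did (48.4% of all genes, 14.3% higher and 34.1% lower): Prkar1a, Prkar2b, Prkacb and Sgk1 higher, Pde7b and Creb1 lower. KO and WT at 0 h also separated in 6 of 9 (46.4% of all genes, 27.3% higher and 19.1% lower), with Creb1 higher in KO and Prkar1a, Prkar2b, Prkaca, Prkacb and Rgs2 lower. At 44 h 3 of 9 did (39.1% of all genes, 23.9% higher and 15.1% lower), with Prkar2a higher in KO and Prkar1a and Prkacb lower. The members' shares are near the background in the WT change and between genotypes at 44 h. In the KO change and at 0 h they are above it, but among only 9 genes. None of these counts is read as a result about these genes. The median differences of the 9 genes, beside those of all genes tested, were -0.16 and -0.13 for the WT change, 0.05 and -0.11 for the KO change, -0.22 and 0.03 for KO against WT at 0 h, and -0.22 and 0.05 at 44 h. The 2 changes share no libraries, but each comparison of genotypes shares libraries with a change over time.

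The other genes of the pathway were taken from 11 lists of 161 further genes in the table, of which 123 passed the filter. Limma called 0 of the 123 in any of the 5 comparisons over all 8 libraries. At an unadjusted p under 0.05, 36, 36, 7, 11 and 1 of the 123 passed, in the order of comparisons given for the 9 genes, beside 24.1%, 21.1%, 9.69%, 9.79% and 1.82% of all genes. In WT alone it called 17 (14 higher, 3 lower; 6.9% of all genes). Without the 44 h library labelled KO replicate 1 it called 23 for the WT change (18 higher, 5 lower; 9.74% of all genes) and 17 for the KO change (15 higher, 2 lower; 8.54%). Without KO replicate 2 these were 22 (18 higher, 4 lower; 9.72%) and 0 (0.234%). In the WT change 63 of the 123 were higher and 60 lower, with a median of 0.01, against -0.13 over all genes. Of all genes 38.1% were higher in that change, and the counts for each list below are to be set beside that share.

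Of 8 receptors tested, 5 were higher and 3 lower in the WT change. Lhcgr, the LH receptor, was 5.33 and 2.28 FPKM in untreated WT and 299 and 308 at 44 h (log2 difference 6.06, SE 1.04, adjusted p = 0.0776). In KO Lhcgr was 2.53 and 1.41 FPKM at 0 h, 18.8 in the 44 h library labelled KO replicate 1 and 261 in KO replicate 2. Fshr, the FSH receptor, was 53.3 and 33.6, then 83.9 and 110 FPKM in WT, and 45.4 and 47.7, then 89.6 and 154 in KO. Fshr was higher in both KO libraries at 44 h than in both untreated ones, whereas Lhcgr in replicate 1 lay far under the WT level.

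Gnai1, encoding an inhibitory G protein alpha subunit, was 18.3 and 16.8 FPKM in untreated WT and 8.63 and 6.48 at 44 h (-1.12, SE 0.186, adjusted p = 0.0776), and 15.4 and 14.8, then 9.69 and 8.83 in KO. It was lower in all 4 libraries at 44 h. Of the 12 G protein alpha subunits 5 were higher and 7 lower in WT. Of 5 genes listed with the adenylyl cyclases, 2 were higher and 3 lower, none called in WT alone; Adcy3 was 3.25 and 5.19, then 9.35 and 5.62 FPKM in WT. Of 8 RGS proteins besides Rgs2, 4 were higher and 4 lower, and Rgs7 was 0.360 and 0.508, then 1.66 and 1.56 FPKM in WT.

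Among 11 further cAMP phosphodiesterases, 5 were higher and 6 lower in WT. Pde4b, a PDE4 gene like Pde4d, was 0.706 and 0.219 FPKM in untreated WT and 3.25 and 3.43 at 44 h (1.59, SE 0.251, adjusted p = 0.0776), and 0.557 and 0.658, then 2.32 and 3.50 in KO. Its 4 libraries at 44 h all exceeded those at 0 h. Pde1a was 18.5 and 14.1, then 29.2 and 33.4 FPKM in WT, and 15.0 and 16.3, then 8.89 and 18.8 in KO; KO against WT at 44 h was -1.20 (SE 0.323, adjusted p = 0.477), or -0.70 (adjusted p = 0.597) without KO replicate 1.

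Creb3, a membrane-anchored relative of CREB1 that is released by proteolysis, was 67.4 and 59.3 FPKM in untreated WT and 156 and 154 at 44 h (1.28, SE 0.353, adjusted p = 0.113). In KO Creb3 was 64.7 and 59.8 at 0 h, 63.1 in the 44 h library labelled KO replicate 1 and 149 in replicate 2, with replicate 1 near the untreated level. In the list of 16 CREB family members and coactivators, 6 were higher and 10 lower in WT. Rap1gap, of the EPAC branch, was 0.262 and 0.238, then 1.66 and 1.43 FPKM in WT. Rap2b was 42.8 and 30.9, then 20.5 and 15.5 in WT.

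Foxo1, a transcription factor that AKT and SGK1 phosphorylate and hold out of the nucleus, was 119 and 106 FPKM in untreated WT and 60.7 and 67.1 at 44 h (-0.80, SE 0.165, adjusted p = 0.0918). In KO it was 77.1 and 96.8, then 57.5 and 52.6, lower in both libraries at 44 h. Of the 12 genes of the SGK and AKT list, 4 were higher and 8 lower in WT. Of 16 A-kinase anchoring proteins, which tether PKA, 9 were higher and 7 lower; Akap17b was 4.25 and 5.83, then 2.48 and 1.99 FPKM. Pkig, a PKA inhibitor, was 133 and 134, then 113 and 131 FPKM in WT and 112 and 105, then 99.2 and 102 in KO.

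The list that stood highest was that of 23 cAMP and FSH target genes of granulosa cells: 19 were higher and 4 lower in WT (median 0.62), and 21 were higher and 2 lower in KO (median 0.55), where 38.1% and 39.3% of all genes were higher. In WT alone limma called 9 of the 23 higher and 1 lower (6.9% of all genes called in either direction). For the KO change it called 10 higher and 0 lower without the 44 h library labelled KO replicate 1 (8.54% of all genes) and 0 without KO replicate 2 (0.234%). Fdx1, ferredoxin of the mitochondrial steroid P450s, was 103 and 79.7, then 945 and 810 FPKM in WT (3.26, SE 0.507, adjusted p = 0.0767), and 73.4 and 80.2, then 203 and 708 in KO. Star, the cholesterol transfer protein, was 5.03 and 1.45, then 132 and 205 FPKM in WT, and 1.94 and 2.64, then 8.61 and 77.7 in KO. The list was drawn with earlier results of these data known and is not independent evidence of its direction.

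Between genotypes at 44 h none of the 123 was called, with all 8 libraries or without KO replicate 1, and 11 (1 higher, 10 lower; 5.85% of all genes) were called with replicate 1 as the only KO library. The genes named by the smallest p in each list had adjusted p from 0.477 to 0.671. Each is given by its log2 difference with both KO libraries and then without replicate 1. Several of the lower genes moved closer to 0 without replicate 1. These were Cyp11a1, which starts steroid synthesis from cholesterol (-2.95, then -0.81), Star (-2.59, then -1.07), Lhcgr (-2.08, then -0.22) and Creb3 (-0.67, then -0.06). They also included Pkia (-0.56, then -0.06), Cap1 (-0.50, then -0.12), Gna11 (-0.44, then -0.13), Gnai3 (-0.43, then -0.14), Rgs7 (-0.74, then -0.34) and Rap1gap (-0.75, then -0.45). In KO replicate 2 each of them but Gna11 still lay under both WT libraries at 44 h. For Cyp11a1 it held 2508 FPKM against 4451 and 4339 in WT, and for Star 77.7 against 132 and 205. Lower also, with smaller moves, were Akt2 (-0.62, then -0.40), Akt1 (-0.42, then -0.31) and Pkig (-0.27, then -0.25). Higher in KO were Adora2b, an adenosine receptor (0.70, then 0.71), Pde3b (0.59, then 0.61), Rgs17 (0.55, then 0.27), Rap2b (0.54, then 0.56), Akap12 (0.52, then 0.46), Creb3l4 (0.51, then 0.59), Akap17b (0.46, then 0.45) and Adcy5 (0.29, then 0.27). Adora2b was 1.5 and 2 FPKM in untreated WT, 1.18 and 1.65 in treated WT, 5.52 and 4.76 in untreated KO, and 2.90 and 2.94 in treated KO, with all 4 KO libraries above all 4 WT libraries. Akap12, which scaffolds PKA at the plasma membrane, was 2.54 and 4.58, then 2.43 and 1.34 FPKM in WT and 7.59 and 6.65, then 3.23 and 2.89 in KO. Oocyte marker sums were also higher in KO at both times. They were 1546 and 2585, then 839 and 807 FPKM in WT and 4266 and 3785, then 1971 and 1194 in KO. The part of oocyte RNA in the genes higher in KO was not tested. The remaining WT changes of named genes were those of Creb3l1 (1.18), Cbfa2t3 (1.08), Gna11 (0.61), Adcy6 (-0.36), Prkar1b (-0.66), Rgs17 (-0.74) and Pkib (-0.27), with no call over the 8 libraries.

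**Figure D4:**
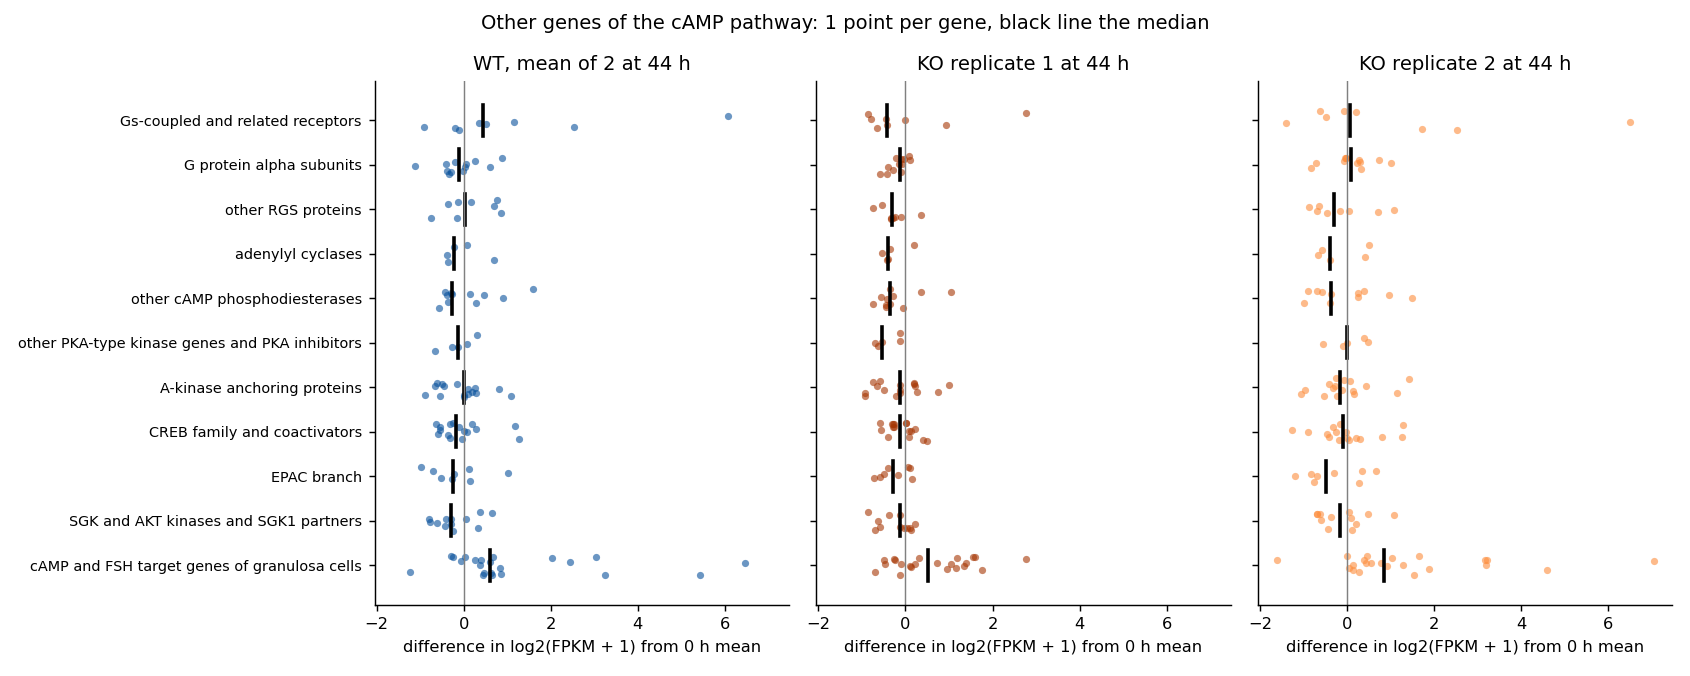
Difference in log2(FPKM + 1) from the 0 h mean of the same genotype (x axis) for each gene of the 11 lists (y axis), in the WT 44 h mean and in each KO library at 44 h; the black lines are medians, and Lhcgr is plotted among the receptors only. The target gene list has the highest median in all 3 panels (0.61, 0.52 and 0.84), while its highest points reach less far in KO replicate 1.

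Replicate 1 of KO at 44 h was unlike the untreated libraries in some of these genes and close to them in others. Relative to the KO 0 h mean, replicate 1 differed by 2.76 for both Lhcgr and Cyp11a1, 1.11 for Prkar2b, 1.05 for Pde4b and 0.93 for Fshr. It differed less for Pde7b (-0.51) and Sgk1 (0.43), which were alike in size, and by 0.05 for Rgs2 and 0.02 for Creb3. This grouping was made after the values were seen and has no test. The 2 libraries had relative depths of 1.00 and 1.26. Immune markers summed to 302 and 372 FPKM and surface epithelium markers to 134 and 439 in replicates 1 and 2, and oviduct markers to 9.91 and 323. In WT at 44 h, replicates 1 and 2, immune markers summed to 252 and 177 FPKM and surface epithelium markers to 224 and 226. Oviduct markers summed to 385 and 13.8 FPKM there, so they also split the WT pair. The part of these values in the split of the KO pair was not tested.

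For the 3 genes whose group means ranged most, the genes with the nearest pattern over the 8 libraries were found by Pearson's correlation of log2(FPKM + 1), given as a description since the points share libraries. For Sgk1 these were Dcaf11, Oxtr and Dpep2 (r = 0.989 for each, of 8748 candidates). Oxtr, the oxytocin receptor, was 1.21 and 0.751, then 29.3 and 22.9 FPKM in WT, and 0.782 and 0.819, then 1.96 and 16.0 in KO. For Prkar2b they were Fbxo6 (0.989), Fasn (0.985), encoding fatty acid synthase, and Fez2 (0.984). Fbxo6 was 24.3 and 14.9, then 32.6 and 32.6 FPKM in WT and 13.2 and 10.4, then 28.8 and 38.7 in KO. For Pde7b they were Atrnl1 (0.984), Ptprd (0.978) and Odz4 (0.976), and Ptprd, a receptor tyrosine phosphatase, was 37.4 and 30.8, then 12.7 and 14.9 FPKM in WT.

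By mean level over the 8 libraries, Prkar2b stood at the 98.6 percentile of all genes in the table, Rgs2 at 98.2, Prkar1a at 96.6, Sgk1 at 92.8, Prkaca at 83.4, Prkacb at 75.9, Prkar2a at 70.5, Creb1 at 57.0, Pde7b at 54.4 and Pde4d at 36.8. In the order of group means, neighbouring groups overlapped between KO and WT at 44 h for Prkar2b, Pde7b, Creb1, Sgk1 and Rgs2, and between KO and WT at 0 h for Prkar2a, Pde4d, Pde7b and Sgk1.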

How the data were processed

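The authors deposited 1 table of FPKM values per gene and library, per the file headers. Per the submitters' processing notes the tools were TopHat2 2.1.1 and Cufflinks 2.2.1 and the build was mm9; the annotation is not given in the sources used here. FPKM are not counts, so no count model was used, and depth was read only as a ratio between libraries. Extraction with Trizol and Illumina paired-end sequencing are per the labels' protocols.

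Genes reaching an FPKM of 1 in 2 or more libraries (13688) were analysed as log2(FPKM + 1) in limma 3.58.1 (R 4.3.3), with a mean per group over 8 libraries, a trend in the empirical Bayes step and 4 residual degrees of freedom. Tests were two-sided and Benjamini-Hochberg adjustment covered every gene kept, separately in 5 comparisons, with 0.05 as the threshold. The fit was tested on simulated data for the WT change: of genes changed by 1, 2 and 3 on the log2 scale it recovered 17 of 67, 48 of 67 and 59 of 66, with 9 false calls among the 13315 genes run. The simulation gave a gene the same spread in every group and changed only genes averaging over 3 on that scale. In the data the KO pair at 44 h spread more than the other pairs, so this recovery need not hold there.

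The 10 genes and all lists were chosen with earlier results of these data known. All 10 are named, as are, from each pathway list, the 2 genes with the smallest p in the WT change and the 2 in KO against WT at 44 h. Of the genes this rule selects, 1 is not reported here. Genes of similar pattern were the 3 with the highest correlation, among genes averaging 5 FPKM or more in some group and bearing no predicted or clone name. Figures were drawn with matplotlib 3.10.9. Promoter sequences are RefSeq's on GRCm38.p6, another build than mm9, and gene coordinates are therefore given only for them.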

Additional observations from a re-analysis of the deposited data

How the results depend on the processing

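Over 806 recalculated differences of the 10 genes, 757 kept their direction and side of the threshold, 23 passed the threshold and 26 changed direction; none was called to begin with, so no call could be lost. Genes called for the WT change were 11 as reported, 30 with median-of-ratios scaling, 7 with quantile normalization, 34 with robust empirical Bayes and 945 in WT alone (3 of the 9 genes); for the KO change, 19 became 10 with a pseudocount of 0.1, 6 with no filter, 35 robust and 9 in KO alone. For KO against WT, 5 became 3 with no filter and 8 robust at 0 h, and 3 became 6 with only those groups at 44 h. With replicate number as a block, the counts were 7 in WT and 6 in KO; same-numbered libraries correlated by -0.113 to -0.00684, and the labels do not say that numbers pair the samples. Leaving out 1 library each time, called genes ranged from 4 to 1333 (WT change), 3 to 1169 (KO change), 3 to 9 (0 h), 2 to 801 (44 h) and 6 to 78 (difference of changes), and called members from 0 to 4, 0 to 4, 0 to 0, 0 to 3 and 0 to 1. Directions changed at 0 h for Sgk1 (-0.023 with median-of-ratios and -0.017 with quantile scaling; range -0.26 to 0.36) and Creb1 (-0.0092 with quantile scaling), and in leave-one-out ranges for Creb1 (-0.93 to 0.032) and Prkaca (-0.12 to 0.20) in the WT change; Prkaca (-0.44 to 0.71) and Rgs2 (-1.15 to 0.050) in the KO change; Pde7b at 0 h (-0.58 to 0.071); Creb1 (-0.074 to 0.89), Prkar2b (-0.52 to 0.048), Prkaca (-1.03 to 0.11), Pde7b (-0.14 to 0.38) and Rgs2 (-0.25 to 0.95) at 44 h; and Prkaca (-0.48 to 0.67), Creb1 (-0.21 to 0.75), Prkar1a (-0.39 to 0.14) and Rgs2 (-0.032 to 1.17) in the difference of changes. After quantile normalization Prkar1a held 27.8% of regulatory FPKM in KO and Prkar2a 1.04% in WT at 44 h. Alternatives chosen after seeing the data were no filter with a pseudocount of 0.1 (5 genes called for the WT change, 6 for the KO change) and no filter without the 44 h library labelled KO replicate 1 (208, 472, 2, 45 and 28 genes; 2 members in each change; Prkar2b 0.048, Prkaca 0.11, Pde7b -0.14 and Rgs2 -0.25 in KO against WT at 44 h, Prkar1a 0.14 and Rgs2 -0.032 in the difference of changes). The cause of these shifts was not tested; 2 libraries a group limit the precision.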
